A study of Mus musculus with 15 samples.

Results

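Voltage-gated sodium and calcium channels were examined as 34 genes out of the 23132 genes kept from the count table. The members were the genes of the sodium channel pore and beta subunits, of the calcium channel pores, and of their α2δ, β and γ auxiliary subunits, taken by symbol, and all 34 were present in the table. Sodium channels carry the upstroke of the action potential and are gathered at the axon initial segment. Calcium channels turn depolarisation into calcium entry: the Cav1 (L-type) pores signal to the nucleus, the Cav2 pores trigger transmitter release at nerve terminals, and the Cav3 (T-type) pores open near the resting potential. A calcium pore of the Cav1 or Cav2 families is assembled with a cytoplasmic β subunit and an extracellular α2δ subunit, which govern how much of it reaches the surface, while the γ genes studied here mainly encode partners of AMPA-type glutamate receptors.

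RNA was sequenced from whole E15.5 cerebral cortices of *Phf6*+/Y (control, n = 3) and *Phf6*-/Y (n = 5) foetuses, and from E16.5 cortical neurons of *Phf6*+/Y;Nes-creTg/+ (control, n = 3) and *Phf6*lox/Y;Nes-creTg/+ (n = 4) foetuses that were dissociated and cultured overnight, all male and on the C57BL/6 strain. PHF6 is a chromatin-associated protein encoded on the X chromosome, and its loss in the mouse was studied as a model of an intellectual disability syndrome with seizures. In the cortices the deletion was made in the germline with a Cre-deleter strain, so every cell carried it, whereas in the neurons the Nestin-cre transgene, present in both neuron groups, recombined the floxed allele in the neural lineage. Each library came from 1 foetus, and libraries 1 to 3 of the control cortices came from litters 3, 2 and 1, library 1 of the deleted cortices from litter 3, libraries 2 and 3 from litter 2, and libraries 4 and 5 from litter 1. Control neurons 1 to 3 came from litters 4, 5 and 6, deleted neurons 2 to 4 from the same 3 litters in that order, and deleted neurons 1 from litter 7, which held no control.

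Library totals ranged from 1.69e+07 to 3.12e+07 counts. Levels are given in CPM, the usual scaling of counts to a common library size, here with totals corrected for composition by the TMM method, when a gene is followed across libraries, and per kilobase of exon (RPKM) when genes are compared with each other. *Phf6*, whose floxed exons are only a portion of the transcript counted, had 149 to 191 CPM in control and 42.4 to 55.2 CPM in deleted cortices, and 228 to 259 CPM in control and 59.9 to 85.8 CPM in deleted neurons. It fell by 1.86 on the log2 scale in the cortices and by 1.82 in the neurons (edgeR FDR 1.0e-05 and 5.4e-09). Markers of postmitotic neurons were high in every library, with the sum of 9 genes at 5324 to 7248 CPM in the cortices and 9823 to 11066 CPM in the cultures. Progenitor markers (10 genes) summed to 2522 to 3210 CPM in the cortices and 595 to 999 CPM in the cultures, and endothelial markers (5 genes) to 124 to 270 CPM and 3.70 to 7.32 CPM. Deleted cortex 1 stood apart, with the highest sum of 8 genes listed as subcortical markers (752 CPM, against 319 to 465 CPM in the other 7 cortices) and the lowest postmitotic neuron sum (5324 CPM). The subcortical list still summed to 278 to 346 CPM in the cultures, although 6 of its 7 tested genes were lower in control neurons than in control cortices at an edgeR FDR below 0.05. Its sum is therefore not a measure of subcortical RNA alone.

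Within each subunit family a few genes made up most of the RPKM. Among the sodium channel pores, *Scn3a*, the embryonic brain form, made up the largest share of the summed RPKM of its family, 42.2% ± 3.3 (SD, n = 3) in the control cortices and 36.6% ± 1.1 (n = 3) in the control neurons. *Scn8a*, which encodes the pore that dominates mature initial segments and nodes, followed at 24.6% ± 1.3 in the control cortices, ahead of *Scn2a* at 21.0% ± 2.2, and their ranges over libraries did not overlap (23.4% to 26.0% and 18.5% to 22.7%). In the control neurons *Scn2a*, the form of young axons, took 34.2% ± 2.2 and overlapped with *Scn3a* in range. *Scn1a*, the pore on which fast-spiking interneurons later depend, held 7.7% ± 1.3 and 8.1% ± 0.18.

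The remaining sodium channel pores were low. *Scn9a* held 2.96% ± 0.47 of the pore RPKM in control cortices and 1.62% ± 0.21 in control neurons. *Scn10a* and *Scn11a*, best known from peripheral sensory neurons, were each under 1% on average in both preparations. *Scn4a*, the skeletal muscle pore, was found with at most 4 counts in a library, and *Scn7a*, a glial and sensory relative, with at most 7. Of the β subunits, *Scn3b*, a fetal brain form, made up 92.6% ± 0.27 of the β RPKM in the control cortices and 95.8% ± 0.50 in the control neurons, *Scn2b* the rest, and *Scn4b* had at most 13 counts.

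On the calcium side, *Cacna1b*, the N-type pore of presynaptic terminals, led the Cav1 and Cav2 pores with 29.8% ± 1.7 of their summed RPKM in the control cortices and 29.5% ± 2.3 in the control neurons. In the cortices *Cacna1e* (21.4% ± 2.3) and *Cacna1a* (20.7% ± 2.4) followed with overlapping ranges, *Cacna1c* (18.2% ± 1.1) overlapped with *Cacna1a* but not with *Cacna1e*, and *Cacna1d* was lowest at 9.9% ± 0.70. *Cacna1h* held 65.2% ± 2.2 of the T-type RPKM in cortex and 78.9% ± 1.6 in neurons. *Cacnb3* supplied 75.3% ± 1.2 and 71.6% ± 3.4 of the β RPKM. *Cacng4* and *Cacng7* together made up most of the γ RPKM, with 44.7% ± 2.0 and 40.8% ± 2.8 in cortex. Per kilobase the most abundant members of all were *Cacng4*, *Cacng7* and *Cacnb3*, at 95.6 ± 1.7, 87.7 ± 11 and 79.8 ± 5.1 RPKM in the control cortices (SD, n = 3).

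**Figure D1:**
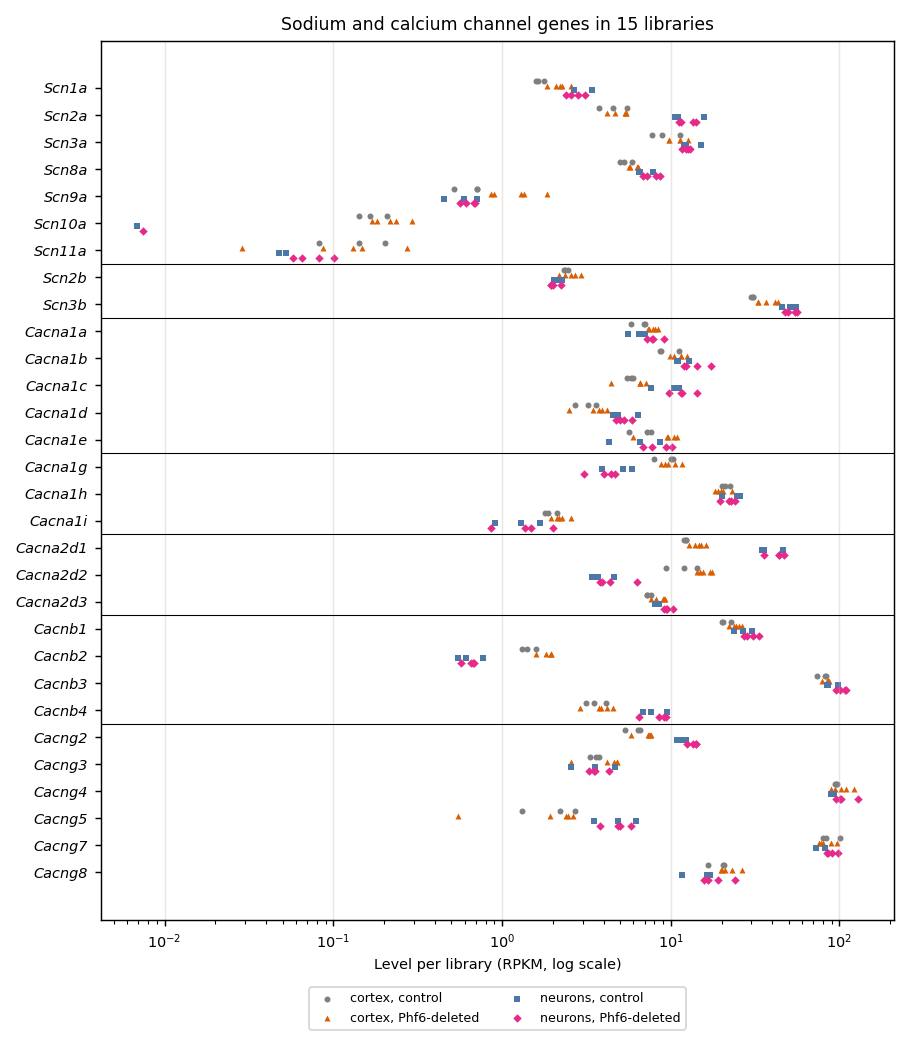
Level of the 30 members that passed the low-count filter, in RPKM on a log axis; each point is 1 library (grey circles, 3 control cortices; orange triangles, 5 Phf6-deleted cortices; blue squares, 3 control neuron cultures; pink diamonds, 4 Phf6-deleted neuron cultures), and lines separate the subunit families. Libraries with 0 counts cannot be drawn on a log axis and are left out, which applies to *Scn10a* and *Scn11a* in neurons.

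The first question was what the loss of PHF6 did to these genes in the E15.5 cortex. Most members lay a little above control, the α2δ genes *Cacna2d2*, *Cacna2d1* and *Cacna2d3* and the sodium pore *Scn9a* among them, though none past the threshold used here: 26 of the 30 tested had a log2 fold change above 0 (49.4% of all 14750 genes tested did), and the median was 0.18 against -0.0021 over all genes. No member passed a false discovery rate (FDR, Benjamini-Hochberg adjusted p) of 0.05 in the quasi-likelihood test of edgeR, in which litter was a covariate, and this threshold was one that 0.386% of all genes passed. At an unadjusted p below 0.05, 11 members were higher and 0 lower, against 5.69% of all genes higher and 4.77% lower. DESeq2 called 3 members on the same counts (*Cacna2d2*, *Scn9a* and *Cacna1e*) and limma-trend 1 (*Cacna2d2*). Over all genes DESeq2 called 195 and limma-trend 61, against 57 for edgeR. In bulk RNA, a change in how many cells of a type are present cannot be told apart from a change in the RNA of each cell. Endothelial markers in the cortices summed to 148 to 173 CPM in control and 124 to 270 CPM in deleted libraries, and postmitotic neuron markers to 6366 to 7003 CPM and 5324 to 7248 CPM. Of the postmitotic neuron markers 7 of 9 lay below control, 2 of them lower at an unadjusted p below 0.05, and of the endothelial markers 4 of 5 lay above, 0 at that level. Of the subcortical markers 7 of 8 lay above control, 4 of them higher and 1 lower at an unadjusted p below 0.05 and *Dbx1* past the FDR (0.0136, edgeR), at sums of 324 to 465 CPM in control and 319 to 752 CPM in deleted cortices. Of the mural markers 5 of 5 lay above control, with sums of 85.9 to 101 CPM and 88.9 to 150 CPM. The same held for 5 of 5 meningeal fibroblast markers, 0 at an unadjusted p below 0.05, with sums of 14.0 to 267 CPM and 11.9 to 518 CPM. Deleted cortex 4 had the highest endothelial, mural and meningeal fibroblast sums of all cortices. Progenitor (8 of 10), microglia (4 of 5), erythroid (4 of 4), choroid plexus (4 of 5) and glial (5 of 7) markers lay mostly below control. Of the interneuron markers 5 of 7 lay above control, with 2 higher and 1 lower at an unadjusted p below 0.05. Their sums were 646 to 813 CPM in control and 683 to 750 CPM in deleted cortices. The part of these cells in the channel values was not tested. Deleted cortex 1 is the only deleted library of litter 3. With litter in the fit, leaving out this library or any control cortex takes its whole litter out of the genotype estimate. Without deleted cortex 1, the 11 members higher at an unadjusted p below 0.05 became 13, with *Cacna2d2* past the FDR. Without deleted cortex 4 they stayed at 11, with *Scn9a* past the FDR. Over all genes these 2 fits called 17 and 71.

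The smallest p belonged to *Cacna2d2*, an α2δ subunit whose loss causes ataxia and absence seizures in mice. Its level was 79.8, 66.4 and 51.9 CPM in the 3 control cortices and 86.6, 94.4, 96.8, 83.2 and 79.2 CPM in the 5 deleted cortices. The groups overlapped only by the lowest deleted and the highest control library, which came from different litters, and each deleted cortex exceeded the control of its own litter. The log2 fold change was 0.45 (SE 0.089), with an FDR of 0.0505 in edgeR's quasi-likelihood test. Without deleted cortex 1 it was 0.59 (FDR 0.00718), without control cortex 1 of the same litter 0.58 (FDR 0.0128), without deleted cortex 5 0.44 (FDR 0.0495), and at its lowest, without control cortex 3, 0.34 (FDR 0.364).

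*Scn9a*, which encodes a sodium pore central to pain sensing and is sparse in brain, differed most in size. Control cortices had 6.94, 7.01 and 5.08 CPM, and deleted cortices 18.1, 13.2, 8.85, 8.47 and 12.8 CPM. All deleted libraries were above all controls, but they spread widely, and the highest of them was deleted cortex 1, the library with the highest sum of the genes listed as subcortical. The log2 fold change was 0.99 (SE 0.20, edgeR FDR 0.0641), and 0.85 (FDR 0.279) without deleted cortex 1. It passed the FDR without deleted cortex 3, 4 or 5 (0.0214, 0.0480 and 0.0463). An antisense transcript, Gm13629, shares 180 exon bases with *Scn9a*, and whether the counting used strand was not given in the sources used here.

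*Scn3b*, the predominant β subunit, had 138, 142 and 142 CPM in control and 152, 199, 192, 151 and 169 CPM in deleted cortices. The control values were nearly equal, and every deleted value was above them. Its log2 fold change was 0.26 (SE 0.075) with an edgeR FDR of 0.203. *Scn1a* (log2 fold change 0.39, SE 0.12) and *Cacnb2* (0.39, SE 0.15) also had deleted groups wholly above control, and *Cacnb1* (0.21, SE 0.076) did not, with edgeR FDR values of 0.271, 0.377 and 0.324. Without deleted cortex 1 the log2 fold changes were 0.31 for *Scn3b*, 0.38 for *Scn1a*, 0.43 for *Cacnb2* and 0.27 for *Cacnb1*, each still at an unadjusted p below 0.05. The lowest values with 1 library left out were 0.16 for *Scn3b* and 0.14 for *Cacnb1*, both without control cortex 2, where neither kept that p.

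Counting libraries instead of models, 7 members had every deleted cortex above every control (*Scn1a*, *Scn9a*, *Scn3b*, *Cacna1a*, *Cacna2d1*, *Cacna2d3* and *Cacnb2*) and 0 had every one below, where 2.47% and 2.55% of all genes did. Within litters, 14 of 30 members were above the control of the litter in all 5 deleted cortices, against 8.18% of all genes, and 0 were below it in all 5, against 8.72%. By family, 3 of 3 tested α2δ genes, 3 of 5 Cav1 and Cav2 pores, 2 of 4 calcium channel β genes, 2 of 7 sodium pores, 1 of 2 sodium β genes, 0 of 3 T-type pores and 0 of 6 γ genes were higher at an unadjusted p below 0.05.

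**Figure D2:**
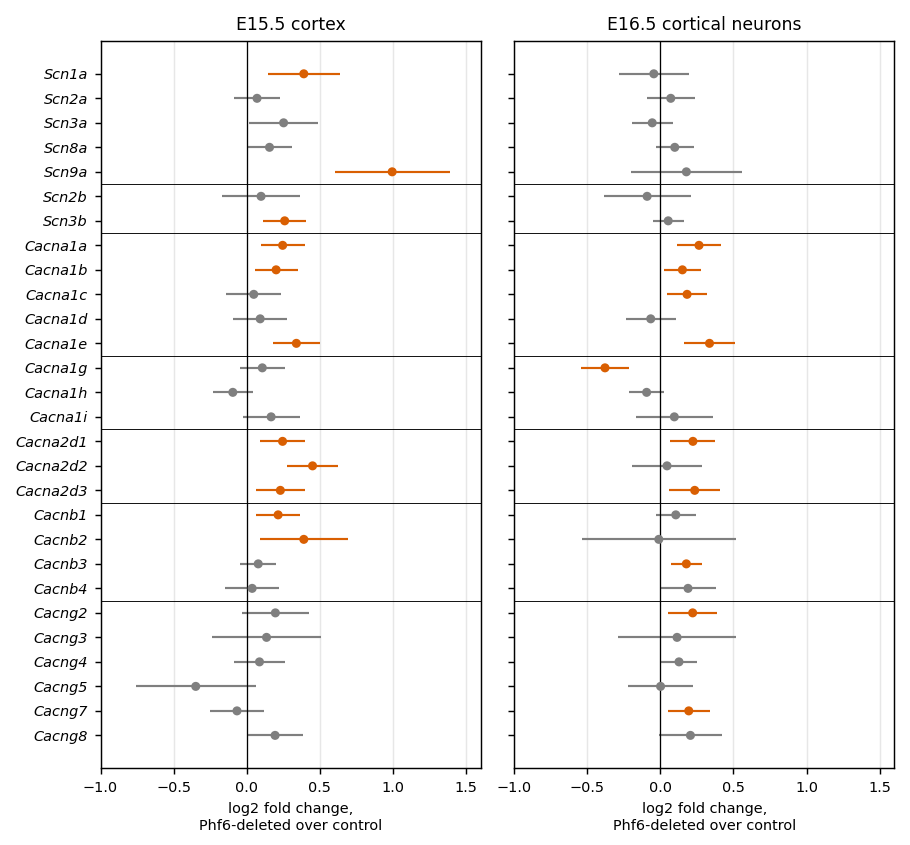
Log2 fold change of Phf6-deleted over control libraries for 28 members, in cortex (3 control and 5 deleted libraries) and in cultured neurons (3 and 4); points are the fitted values, bars are 95% intervals from the standard errors, and orange marks an unadjusted p below 0.05. In both tissues most points lie to the right of 0, with *Cacna1g* in neurons the 1 orange point to the left; no member passed an FDR of 0.05 in either panel.

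The same question was asked of the cultured neurons, where *Cacna1g* was lower and the Cav2 pores, with several auxiliary subunits, were modestly higher, none past the FDR. Of 28 members tested, 21 had a log2 fold change above 0 (50.3% of all 13909 genes did), with a median of 0.11 against 0.00097 over all genes. No member passed an FDR of 0.05 in edgeR's quasi-likelihood test, a threshold passed by 0.273% of all genes, and DESeq2 and limma-trend called 0 as well. At an unadjusted p below 0.05, 9 members were higher and 1 was lower, against 5.87% and 4.46% of all genes. Deleted neurons 1, without a litter control, carried no weight in this fit. Leaving out either culture of litter 4, 5 or 6 takes that whole litter out of the genotype estimate. The 2 fits of a litter are therefore not separate tests. Leaving out control neurons 2 reduced the 9 to 3, and leaving out control neurons 1, deleted neurons 2 or deleted neurons 3 reduced them to 4. The number past the FDR became 6 without control neurons 3 (*Cacna1a*, *Cacna1c*, *Cacna1e*, *Cacna1g*, *Cacna2d1* and *Cacnb4*), 5 without deleted neurons 4 of the same litter, and 1 (*Cacna1e*) without control neurons 1 or deleted neurons 2. Over all genes those fits called 494, 383, 110 and 115, in that order, against 38 with every culture. Postmitotic neuron markers summed to 9823 to 10988 CPM in control and 10373 to 11066 CPM in deleted cultures, and progenitor markers to 673 to 999 CPM and 595 to 891 CPM. The progenitor sum was lower in the deleted than in the control culture of each of the 3 litters, with 8 of 10 genes below control and 4 of them lower at an unadjusted p below 0.05 (smallest edgeR FDR 0.0893). Past the FDR among the cell type markers were 1 interneuron gene (0.00055, edgeR) and 1 subcortical gene (0.0173, edgeR), both higher. Of the interneuron markers 5 of 7 lay above control, with sums of 177 to 255 CPM in control and 226 to 288 CPM in deleted cultures. Of the 4 subcortical markers tested, 1 lay above control and 3 below. The part of these cells in the channel values was not tested.

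The member with the smallest p in neurons was also the only one lower at that level. *Cacna1g* encodes the Cav3.1 T-type pore, known for burst firing in the thalamus. It had 32.2, 48.4 and 43.1 CPM in control neurons 1 to 3 and 38.4, 25.3, 36.5 and 33.2 CPM in deleted neurons 1 to 4. The groups overlapped, yet within litters 4, 5 and 6 the deleted culture differed from its control by -0.35, -0.40 and -0.38 on the log2 scale, which was a nearly equal step in all 3. The fitted log2 fold change was -0.38 (SE 0.085, edgeR FDR 0.0944), and it ranged from -0.39 to -0.37 when any 1 culture was left out. Fitted without the litter, it was -0.31 (unadjusted p = 0.0822, edgeR FDR 0.789). *Cacna1h*, the most abundant T-type gene, was likewise below its litter control in 3 of 3 comparisons, but by less (log2 fold change -0.09, SE 0.060, edgeR FDR 0.644); 15.7% of all genes were below in 3 of 3.

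In addition to the genes described next, *Cacnb3*, the most abundant β gene, was higher in deleted neurons at an unadjusted p below 0.05. Control neurons had 268, 305 and 264 CPM, and deleted neurons 335, 296, 339 and 313 CPM. A single deleted culture, the one at 296 CPM, lay inside the control range. The log2 fold change was 0.18 (SE 0.054, edgeR FDR 0.223). *Cacna1c* (0.18, SE 0.071), *Cacng2*, which encodes the AMPA receptor partner stargazin (0.22, SE 0.086), and *Cacng7* (0.19, SE 0.074) had edgeR FDR values of 0.369, 0.369 and 0.360. Of the 28 members tested, 5 had every deleted culture above every control (*Cacna1a*, *Cacna2d3*, *Cacng2*, *Cacng4* and *Cacng7*) and 0 had every one below, against 3.61% and 3.62% of all genes, and 13 of 28 were above the control of their litter in 3 of 3 comparisons, against 16% of all genes. *Scn11a*, too low to be tested there, was at no more than 0.591 CPM in any culture. None of the 5 sodium pores tested reached an unadjusted p of 0.05 in the neurons.

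In both tissues, which do not share libraries, 5 members were higher at an unadjusted p below 0.05: *Cacna1a*, *Cacna1b* and *Cacna1e*, which are the 3 Cav2 pores, and the α2δ genes *Cacna2d1* and *Cacna2d3*. They were 45.5% of the 11 members higher in cortex and 55.6% of the 9 higher in neurons, and 1.43% of all 13733 genes tested in both tissues were higher in both. All 5 span at least 100 kb, and the share higher in both tissues among genes of that span was not computed. None of the 5 passed an FDR of 0.05 in either tissue. The count depended on single litters, since leaving out 1 paired culture takes its whole litter out of the estimate. With 1 culture left out, the unadjusted p in neurons rose to as much as 0.156 for *Cacna2d1*, 0.108 for *Cacna1b* and 0.0931 for *Cacna2d3*. It rose to 0.0545 for *Cacna1e* and to 0.0425 for *Cacna1a*. With 1 cortex left out it rose to 0.218 for *Cacna1b*, 0.101 for *Cacna1a* and 0.0763 for *Cacna2d3*. The promoters that RefSeq gives for these genes (GRCm38.p6, 250 bases before to 50 bases after the annotated start, 5′ to 3′ on the strand of the gene) are shown so that their base composition can be read beside the expression values, with every GC box, the motif GGGCGG searched on both strands, in capitals (CCGCCC where it lies on the other strand, and adjoining boxes run together). The entries lie at chr2:24763103-24763402 for *Cacna1b* and chr1:154725871-154726170 for *Cacna1e* (both on the minus strand), chr5:15934441-15934740 for *Cacna2d1* (plus strand) and chr14:29721815-29722114 for *Cacna2d3* (minus strand). The entries of *Cacna1e*, *Cacna2d1* and *Cacna2d3* fall inside the spans that the RefSeq gene annotation used here gives these genes. On the side of the start, the spans end at positions 154884785, 15934264 and 29722775. Whether these windows are those of the main start was not tested.
Cacna1b: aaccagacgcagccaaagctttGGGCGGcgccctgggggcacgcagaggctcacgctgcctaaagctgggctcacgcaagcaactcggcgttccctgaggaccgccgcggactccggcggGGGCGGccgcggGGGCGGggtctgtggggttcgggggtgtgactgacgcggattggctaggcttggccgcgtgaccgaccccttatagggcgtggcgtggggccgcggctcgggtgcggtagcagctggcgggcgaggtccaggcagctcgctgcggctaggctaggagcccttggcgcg
Cacna1e: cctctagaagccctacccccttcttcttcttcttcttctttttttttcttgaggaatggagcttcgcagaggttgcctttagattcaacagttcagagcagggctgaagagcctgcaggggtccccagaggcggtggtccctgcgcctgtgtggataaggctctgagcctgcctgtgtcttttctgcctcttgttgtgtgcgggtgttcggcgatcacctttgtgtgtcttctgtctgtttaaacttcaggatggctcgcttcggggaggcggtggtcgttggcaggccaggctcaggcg
Cacna2d1: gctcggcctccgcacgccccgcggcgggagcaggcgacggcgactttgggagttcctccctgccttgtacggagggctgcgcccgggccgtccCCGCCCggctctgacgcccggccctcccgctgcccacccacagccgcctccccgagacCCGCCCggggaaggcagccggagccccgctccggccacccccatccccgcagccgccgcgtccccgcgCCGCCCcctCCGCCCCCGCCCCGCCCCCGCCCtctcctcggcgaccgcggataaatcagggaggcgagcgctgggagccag
Cacna2d3: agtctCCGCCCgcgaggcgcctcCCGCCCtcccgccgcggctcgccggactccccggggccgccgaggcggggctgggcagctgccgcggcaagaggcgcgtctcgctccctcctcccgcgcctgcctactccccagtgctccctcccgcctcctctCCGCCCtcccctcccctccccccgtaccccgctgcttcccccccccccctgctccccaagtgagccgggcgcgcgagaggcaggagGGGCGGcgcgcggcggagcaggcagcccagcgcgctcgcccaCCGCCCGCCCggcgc

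These windows differed in base composition. *Cacna2d3* was 81.3% and *Cacna2d1* 80% G and C, with 6 and 7 GC boxes and 41 and 42 CpG dinucleotides, and *Cacna1b* was 72.3% with 3 boxes and 35 CpG. *Cacna1e* had none of these boxes, 55.3% G and C and 11 CpG. Of 38 promoter entries found for 27 of the 34 members, 14 (36.8%) held a GC box, as did 35.7% of all 32851 entries, and the median share of G and C was 59.5% against 52.7%. The left half-site of the neuronal repressor REST, TTCAGCACC, was in 0 of the 38 and in 0.371% of all entries, and the complete cyclic AMP response element, TGACGTCA, in 0 of the 38 and in 1.79%. A match to these letters is a description of the window and says nothing about binding.

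*Cacna1e* encodes the R-type pore, present on dendrites and terminals. It had 71.4, 96.4 and 92.4 CPM in control cortices and 75.8, 120, 122, 139 and 133 CPM in deleted cortices. The groups overlapped through deleted cortex 1, whose litter also held the lowest control. In neurons the control values were 83.5, 54.9 and 109 CPM and the deleted values 129, 98.9, 87.0 and 120 CPM, so the groups overlapped there too, while each deleted culture exceeded its litter control. The log2 fold change was 0.34 in each tissue (SE 0.082 and 0.088, edgeR FDR 0.127 and 0.143). In cortex it was 0.44 without deleted cortex 1 (FDR 0.0644) and 0.21 without control cortex 3 (FDR 0.546). In neurons it was 0.18 without control neurons 2 (FDR 0.853), whose level was the lowest of all, and 0.44 without control neurons 3 (FDR 4.8e-05). Each of these fits loses the litter of the library left out, so the call depended on single litters. The fit without control neurons 3 called 494 of all genes.

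*Cacna1a*, the P/Q-type pore that drives transmitter release at most central synapses, had 54.8, 55.6 and 45.9 CPM in control and 58.6, 66.5, 64.4, 57.9 and 62.1 CPM in deleted cortices. In neurons it had 44.1, 51.3 and 55.6 CPM in control and 72.0, 57.0, 62.1 and 61.6 CPM in deleted cultures. In both tissues every deleted library lay above every control. The log2 fold changes were 0.24 (SE 0.077) and 0.26 (SE 0.077), with edgeR FDR values of 0.258 and 0.199. In cortex it was 0.31 without deleted cortex 1 and 0.16 without control cortex 3.

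*Cacna1b*, the N-type pore, had 63.9, 81.2 and 62.9 CPM in control cortices and 71.9, 83.4, 91.1, 83.4 and 76.0 CPM in deleted cortices. In neurons the values were 80.2, 79.7 and 93.2 CPM in control and 126, 89.6, 87.0 and 105 CPM in deleted cultures. The groups overlapped in both tissues. The log2 fold changes were 0.20 (SE 0.075) and 0.15 (SE 0.063), with edgeR FDR values of 0.351 and 0.414. In cortex it was 0.22 without deleted cortex 1 and 0.12 without control cortex 3, and all 8 within-litter differences were above 0.

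*Cacna2d1* encodes the α2δ subunit that is the main target of gabapentin. Control cortices had 89.7, 92.4 and 92.2 CPM and deleted cortices 105, 114, 111, 96.5 and 122 CPM, a complete separation. Control neurons had 260, 267 and 346 CPM and deleted neurons 269, 354, 327 and 330 CPM, which overlapped through control neurons 3. The log2 fold changes were 0.24 (SE 0.078) and 0.22 (SE 0.078), with edgeR FDR values of 0.271 and 0.310. In cortex it was 0.26 without deleted cortex 1. In neurons it was 0.11 without control neurons 1 (unadjusted p = 0.156) and 0.37 without control neurons 3 (edgeR FDR 2.5e-06), a fit that called 494 of all genes.

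*Cacna2d3*, a related α2δ gene, had 26.6, 28.1 and 26.7 CPM in control cortices and 33.3, 34, 33.9, 30.1 and 28.2 CPM in deleted cortices. In neurons the control values were 29.6, 31.3 and 30.5 CPM and the deleted values 33.9, 35.1, 38.1 and 34.6 CPM. Deleted libraries were above control in both tissues, though in cortex the lowest deleted and the highest control library nearly coincided. The log2 fold changes were 0.23 (SE 0.087) and 0.23 (SE 0.089), with edgeR FDR values of 0.353 and 0.360, and in cortex it was 0.20 without deleted cortex 1 (unadjusted p = 0.0763).

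**Figure D3:**
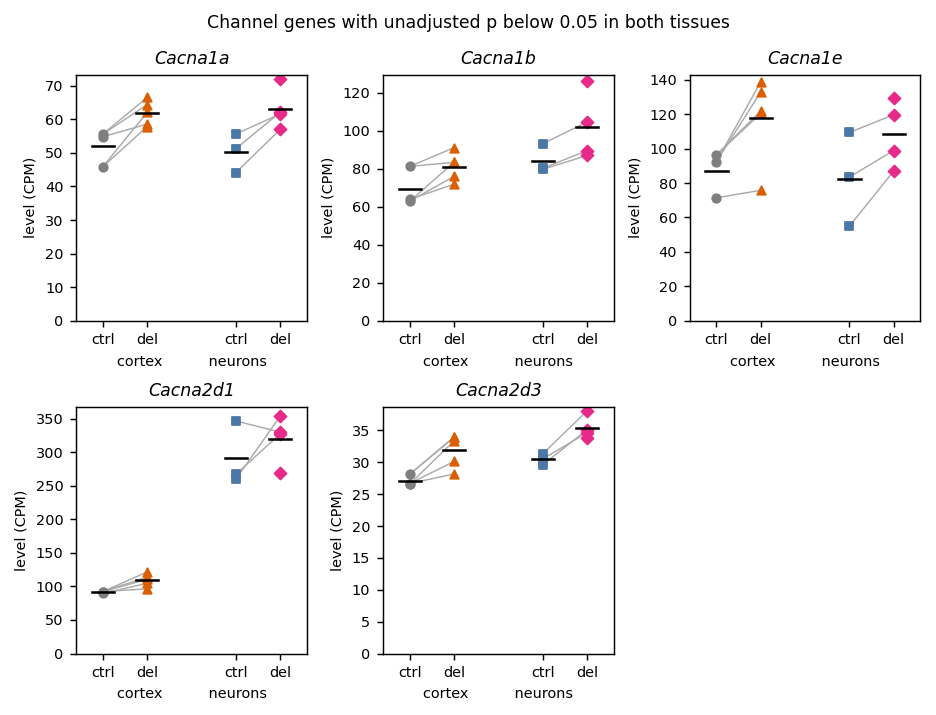
Level in CPM (axis from 0) of the 5 members with an unadjusted p below 0.05 in both tissues; ctrl and del are control and Phf6-deleted libraries, points are single libraries, black bars group means, and grey lines join each deleted library to the control of its litter (deleted neurons 1 had none). The grey lines rise from control to deleted in every litter for *Cacna1a*, *Cacna1b*, *Cacna1e* and *Cacna2d3*, and for *Cacna2d1* in all but 1 neuron litter.

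Channel genes are long, and genes of long genomic span had a higher share of raised values as a class. Among genes spanning at least 100 kb, 13.9% were higher at an unadjusted p below 0.05 in cortex and 14.7% in neurons, against 4.23% and 4.26% of shorter genes. The members spanning at least 100 kb were higher in 9 of 18 cases in cortex and 7 of 17 in neurons, and the shorter members in 2 of 12 and 2 of 11. The part of gene length in these values was not tested further.

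Whether the effect of PHF6 loss differed between cortex and neurons was tested with an interaction term over all 15 libraries. The mode of deletion (germline or Nestin-cre), embryonic day, culture and the Nes-cre transgene go together with the tissue. The test cannot tell them apart. No member passed an FDR of 0.05 (the smallest was 0.511), where 0.0133% of all 15001 genes did, and limma-trend and DESeq2 called 0 members. At an unadjusted p below 0.05, 4 members had a lower effect in neurons than in cortex and 0 a higher one, against 2.92% and 2.27% of all genes. These were *Cacna1g* (difference in log2 fold change -0.49, SE 0.11), *Scn9a* (-0.82, SE 0.29), *Cacna2d2* (-0.41, SE 0.15) and *Scn1a* (-0.44, SE 0.19), with edgeR FDR values of 0.511, 0.855, 0.907 and 0.941. Without deleted cortex 1 they were -0.47, -0.67, -0.54 and -0.42. *Cacna2d2* was -0.25 without control neurons 1 and *Scn1a* -0.26 without control neurons 3, neither at an unadjusted p below 0.05, while that of *Cacna1g* was at most 0.0040 with any 1 library left out. Among the cell type markers, 1 interneuron gene passed the FDR in the interaction (0.0236, edgeR).

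The 4 genes followed different courses. *Cacna1g* had 84.7, 83.0 and 65.5 CPM in control cortices and 95.4, 87.3, 75.7, 79.4 and 72.1 CPM in deleted cortices, overlapping groups with a log2 fold change of 0.11 (SE 0.079), against the step down in neurons. *Scn9a* had 5.87, 4.43 and 7.02 CPM in control and 5.57, 6.66, 5.98 and 6.77 CPM in deleted neurons, which did not separate. *Cacna2d2* likewise overlapped in neurons, with 25.6, 20.6 and 18.8 CPM in control and 34.8, 21.7, 21.0 and 24.3 CPM in deleted cultures. *Scn1a* had 13.5, 13.2 and 14.7 CPM in control and 18.3, 21.3, 15.4, 17.2 and 18.7 CPM in deleted cortices, and 22, 22.2 and 28.2 CPM in control and 19.7, 23.2, 25.6 and 21.3 CPM in deleted neurons.

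**Figure D4:**
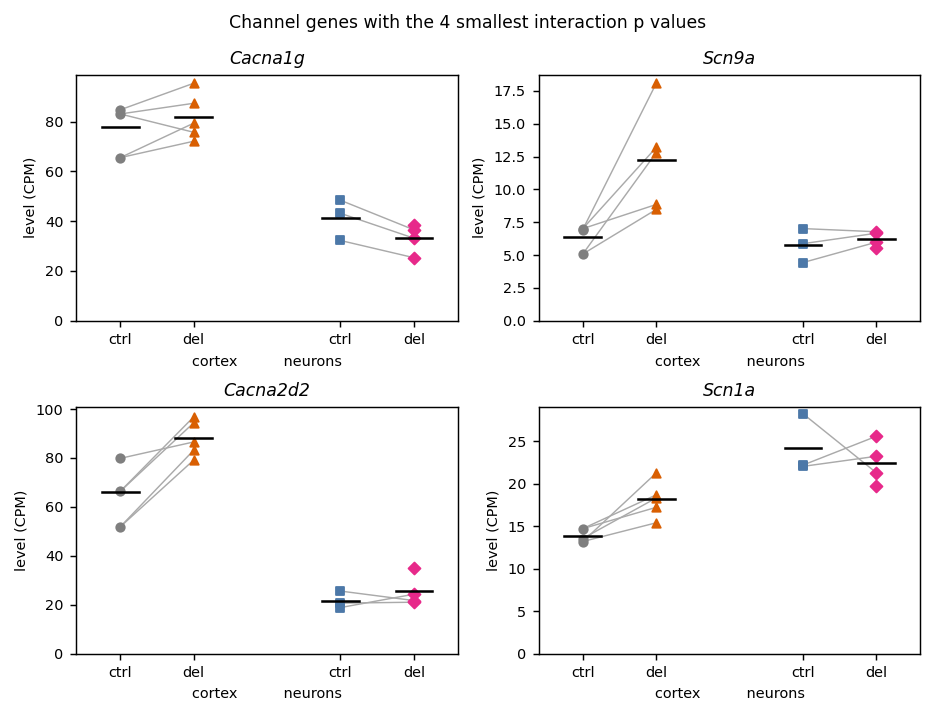
Level in CPM (axis from 0) of the 4 members with the smallest interaction p, drawn with control (ctrl) and Phf6-deleted (del) libraries as points, group means as black bars and grey lines joining each deleted library to the control of its litter. *Cacna1g* steps down in 3 of 3 neuron litters, and *Scn9a*, *Cacna2d2* and *Scn1a* step up in every cortex litter.

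The largest differences among the channel genes lay between the preparations. Control neurons were compared with control cortices, 3 against 3, a contrast in which culture, embryonic day and the Nes-cre transgene go together with the preparation and cannot be told apart. Of 30 members tested, 12 were higher and 6 lower in neurons at an FDR below 0.05 in edgeR's quasi-likelihood test, against 24.7% and 26.4% of all 14320 genes. When libraries were scaled by their totals alone, the median of all genes moved from -0.03 to -0.17 and the split among members from 12 higher and 6 lower to 10 and 9, with *Scn8a* and *Cacnb1* no longer called and *Cacng4*, *Cacng7* and *Cacng8* called lower. Single libraries decided 3 of the calls: *Scn11a* lost its call without control cortex 1 or 2 or control neurons 1 or 2, *Cacna1i* without control cortex 2 or control neurons 1 or 2, and *Cacnb1* without control cortex 2 or control neurons 3.

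The α2δ genes *Cacna2d1* and *Cacna2d2* went opposite ways. *Cacna2d1* rose from 89.7, 92.4 and 92.2 CPM in the cortices to 260, 267 and 346 CPM in the neurons, by 1.67 on the log2 scale (SE 0.11, edgeR FDR 1.4e-07). *Cacna2d2* fell from 79.8, 66.4 and 51.9 CPM to 25.6, 20.6 and 18.8 CPM, by 1.61 (SE 0.16, edgeR FDR 1.4e-05). In RPKM their shares of the α2δ family went from 38.9% ± 3.5 and 37.6% ± 5.2 (n = 3) in cortex to 75.9% ± 3.5 and 7.8% ± 1.9 in neurons, while *Cacna2d3* (log2 fold change 0.16, SE 0.11) was not called, and *Cacna2d4* had at most 14 counts in any library.

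Sodium channel pores of the forebrain rose. *Scn2a* went from 32.7, 47.9 and 39.8 CPM to 95.3, 92.1 and 137 CPM, by 1.43 on the log2 scale (SE 0.19, edgeR FDR 0.000229), and *Scn1a* from 13.5, 13.2 and 14.7 CPM to 22, 22.2 and 28.2 CPM, by 0.80 (SE 0.14, edgeR FDR 0.000379). Neither pair of groups overlapped, but the share of all genes with separate groups between preparations is not given here. *Scn3a*, *Scn8a* and *Scn3b* rose by 0.50, 0.37 and 0.72, with edgeR FDR values of 0.0109, 0.010 and 1.5e-05.

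The sensory pores went the other way. *Scn10a* had 90 counts over the 3 control cortices and 1 count over the 3 control neuron cultures, a ratio of rates of 78.7 (95% exact interval 13.8 to 3143, counting error only). *Scn11a* had 71 and 13 counts, a ratio of 4.78 (2.62 to 9.41). In the deleted libraries the counts were 188 and 1 for *Scn10a*, a ratio of 119 (21.2 to 4736), and 102 and 38 for *Scn11a*, a ratio of 1.70 (1.16 to 2.54). *Scn10a* was thus found in every cortex, at 0.911 to 1.87 CPM, and was all but undetected in the cultures, where endothelial, erythroid (11.4 to 31.9 CPM against 160 to 384 CPM) and progenitor markers were also lower, with the endothelial gene *Cldn5* at 0 in the control cultures, and the part of these cells was not tested. *Scn9a* was not called between control preparations (log2 fold change -0.14, SE 0.24).

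Among the calcium pores, both L-type genes rose and 2 of the 3 T-type genes fell. *Cacna1c*, the L-type pore of calcium signalling to the nucleus, went from 49.9, 54.0 and 52.5 CPM to 94.9, 69.1 and 101 CPM, by 0.76 (SE 0.13, edgeR FDR 0.000308), and *Cacna1d* rose by 0.74 (SE 0.14, edgeR FDR 0.00099). *Cacna1g* fell by 0.92 (SE 0.15, edgeR FDR 0.000411), from 65.5 to 84.7 CPM in the cortices to 32.2 to 48.4 CPM in the neurons, and *Cacna1i* by 0.59 (SE 0.19, edgeR FDR 0.022), while *Cacna1h*, the most abundant of them, was at 0.14 and not called. edgeR did not call the Cav2 pores, at log2 fold changes of -0.05 for *Cacna1a*, 0.28 for *Cacna1b* (FDR 0.0522) and -0.07 for *Cacna1e*, but DESeq2 and limma-trend each called *Cacna1b* higher, as did edgeR without control cortex 2, control neurons 1 or control neurons 2.

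The β and γ genes split. *Cacnb4*, mutated in the lethargic mouse, went from 26.1, 29.2 and 34 CPM to 62.9, 56.4 and 78.6 CPM, by 1.15 (SE 0.14, edgeR FDR 2.2e-05), and *Cacnb2* fell from 7.07, 6.22 and 5.84 CPM to 3.45, 2.44 and 2.72 CPM, by 1.15 (SE 0.24, edgeR FDR 0.0014). *Cacnb1* rose by 0.34 (SE 0.11, edgeR FDR 0.0151), and *Cacnb3* was not called. *Cacng2* went from 18.5, 15.6 and 19 CPM to 31.4, 32.6 and 35.3 CPM, by 0.90 (SE 0.12, edgeR FDR 4.7e-05). *Cacng5* went from 5.00, 10.4 and 8.46 CPM to 23.9, 18.6 and 13.4 CPM, by 1.23 (SE 0.29, edgeR FDR 0.00514). The groups were separate for each of the 4 genes given with their libraries. These genes were named for their large change, and the share of all genes with separate groups is not given here.

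**Figure D5:**
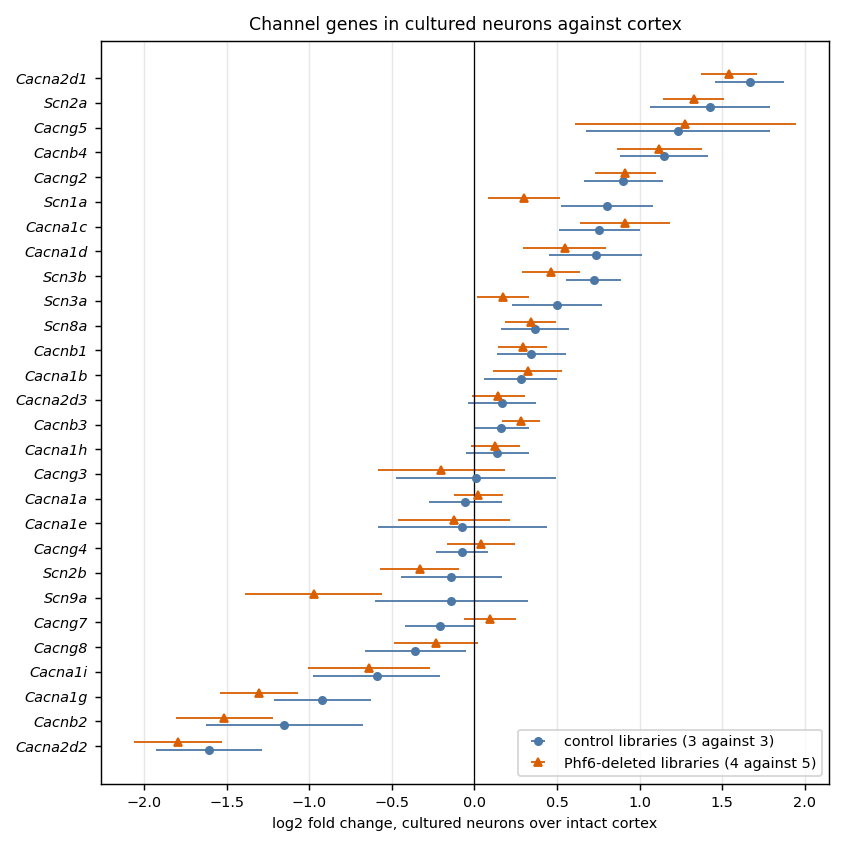
Log2 fold change of cultured neurons over intact cortex for 28 members, ordered by the control comparison; blue circles compare 3 control cultures with 3 control cortices, orange triangles 4 Phf6-deleted cultures with 5 Phf6-deleted cortices, and bars are 95% intervals from the standard errors. *Cacna2d1* and *Cacna2d2* lie at the ends; *Scn10a* and *Scn11a*, with few counts in neurons, are not drawn.

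The deleted libraries, which the control comparison did not use, gave 13 members higher and 7 lower at an FDR below 0.05, against 28% and 31.1% of all 14416 genes. The comparisons shared 16 called members, 88.9% of the 18 and 80% of the 20, and all 16 had the same sign. *Cacna2d1* rose by 1.54 (SE 0.086) and *Cacna2d2* fell by 1.79 (SE 0.14), with edgeR FDR values of 4.9e-08 and 5.4e-07. *Cacna1b*, *Cacnb3*, *Scn2b* and *Scn9a* were called in the deleted comparison alone, and *Scn3a* and *Scn11a* in the control comparison alone; whether those effects differ is the interaction test above. With library totals, 8 members were called higher and 8 lower in the deleted comparison. The calls of *Scn1a* (lost without deleted cortex 3 or 4 or deleted neurons 2 or 3), *Scn2b* (without deleted cortex 2 or 4 or deleted neurons 1, 2 or 3) and *Cacna1b* (without deleted neurons 1) rested on single libraries. Without deleted cortex 1, 14 members were called higher and 7 lower.

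Genes that work with these channels were read from 5 fixed lists. In cortex none passed an FDR of 0.05. Of 10 genes that anchor or partner sodium channels at the initial segment, 3 were higher at an unadjusted p below 0.05 (5.69% of all genes and 13.9% of genes spanning at least 100 kb were), with the smallest p for the ankyrins *Ank2* (log2 fold change 0.22, SE 0.062) and *Ank3* (0.19, SE 0.060), edgeR FDR 0.174 and 0.257. Of the sodium leak channel complex, 3 of 5 genes were tested, and *Unc80* was higher by 0.68 (SE 0.15, edgeR FDR 0.0900) and *Nalcn* by 0.35 (SE 0.10, edgeR FDR 0.222). Among 11 genes of calcium release and store entry, 0 reached that level, with *Ryr2* at 0.26 and *Itpr1* at -0.14. Of 14 calcium sensors and channel regulators, 2 were higher and 1 lower, with the smallest p for *Camk2a* (0.36, SE 0.079, edgeR FDR 0.0845) and *Cabp1* (-0.26, SE 0.092, edgeR FDR 0.315). Of 10 splicing and repressor regulators 1 was higher, *Nova1* (0.60, SE 0.12, edgeR FDR 0.0963), followed by *Rbfox1* at -0.15.

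In the neurons 1 of these genes passed. *Ryr1*, a ryanodine receptor that releases calcium from stores, fell by 0.49 (SE 0.077, edgeR FDR 0.0126), with *Itpr1* next in its list at 0.16. *Ank3* (0.21, SE 0.054) and *Ank2* (0.23, SE 0.060) again had the smallest p of the initial segment list, with edgeR FDR values of 0.141 and 0.145, and 5 of its 10 genes were higher at an unadjusted p below 0.05, against 5.87% of all genes and 14.7% of those spanning at least 100 kb. In the other lists the smallest p belonged to *Unc80* (0.46) and *Unc79* (0.05), *Camk2b* (0.19) and *Calm3* (0.16), and *Rbfox3* (0.18) and *Rest* (-0.30), with edgeR FDR values between 0.189 and 0.845.

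Between control neurons and control cortices the initial segment list had 6 of 10 genes higher and 2 lower, where 24.7% and 26.4% of all genes were, with the smallest p for *Fgf14* (0.79) and *Ank3* (0.55). The leak channel gene *Nalcn* fell by 1.31, with *Unc80* (-0.40) not called. In the same way, the store list had 4 of 11 higher and 3 lower, with *Itpr2* (-3.89) and *Stim2* (0.81), the sensor list 7 of 14 higher and 2 lower, with *Camk2b* (1.74), and the splicing list 3 of 10 higher and 3 lower, with *Rbfox1* (1.35) and *Ptbp1* (-0.95). In the deleted libraries the same lists gave 7 and 2, 0 and 2, 5 and 3, 8 and 3, and 5 and 3, where 28% and 31.1% of all genes were called, with the smallest p for *Ank3* and *Fgf11*, *Nalcn* and *Unc80*, *Itpr1* and *Itpr2*, *Camk2a*, and *Ptbp1* and *Rbfox1*. The interaction called 0 genes in the 5 lists, with *Nova1* (-0.55, edgeR FDR 0.700) having the smallest p.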

How the data were processed

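Counts of paired-end reads per Entrez gene were deposited for 15 libraries; per the methods, the authors aligned reads to mm10 with Rsubread and assigned them to genes by featureCounts against the RefSeq models shipped with Rsubread, without normalisation. Rows with no identifier (1029, holding 0.462% of reads), unmatched identifiers (875), predicted names (1273), pseudogenes (835) and rRNA (35) were set aside, which left 23132 genes. Genes were filtered with filterByExpr, scaled by TMM and tested with edgeR's robust quasi-likelihood F test (edgeR 4.0.16, R 4.3.3) with Benjamini-Hochberg adjustment over all genes tested. The genotype and interaction fits held litter, which the labels give, as a term: deviations from group means correlated between libraries of a litter by -0.085 to 0.471 in cortex (5 pairs) and 0.175 to 0.355 in neurons (3 pairs). The preparations were compared without it, since litters are nested in them.

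The filter kept 30 members (28 in neurons); *Scn4a*, *Scn7a*, *Scn4b* and *Cacna2d4* failed, as did *Scn10a* and *Scn11a* in neurons. Standard errors are the fold change over the root of F. Within-litter log2 differences used a pseudocount of 0.1 CPM. Overlapping genes, found in GENCODE annotation, may share reads with *Cacnb1*, *Cacna1d*, *Cacng2*, *Cacna1h*, *Cacnb2*, *Cacnb4*, *Scn9a*, *Cacna1a*, *Cacna2d2* and *Cacng8*.

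The members and lists were chosen with earlier results of these data known. Named in each genotype comparison and the interaction were members past the FDR or, with fewer than 4, the 4 of smallest p; between control preparations, the 12 called members of largest change and the most abundant of each family; in each list, the 2 of smallest p, of which 1 gene is not reported here; other members described were chosen after their values were seen. The test was tested on simulated data, with 200 genes changed by 0.8 on the log2 scale. It recovered 97% of them in cortex, 95.5% in neurons, 97% between control and between deleted preparations, and 79% in the interaction. The false calls were 8 in cortex, 7 in neurons, 10 between control preparations, 13 between deleted preparations and 10 in the interaction. The simulated spread between libraries was smaller than the fitted one (common biological coefficient of variation) in cortex (0.131) and in the interaction (0.117). It was also smaller than that between control (0.137) and between deleted preparations (0.149), and larger than in neurons (0.0824). No litter effect was simulated between preparations, and only genes above a low level were changed. Recovery of smaller log2 fold changes, such as those of most members between genotypes, was not tested. Alternatives were other scalings, no filter, DESeq2 1.42.0, limma-trend (limma 3.58.1), no litter term, the replicate number as a term, and leaving out each library; counts at an unadjusted p and the split by genomic span were added after seeing the data. Promoters came from RefSeq (GRCm38.p6); *Scn3a*, *Scn3b*, *Cacna1a*, *Cacna1g*, *Cacna1h*, *Cacna2d4* and *Cacng4* were not matched there.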

Additional observations from a re-analysis of the deposited data

Results flagged for a closer look

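In 3 members a single library lay far from the other 4 of its group by Dixon's test, and in each it was deleted cortex 1, at the low end. *Cacna1c* had 39.9 CPM there against 59.3 to 65.0 CPM in the other deleted cortices, *Cacng2* 16.7 against 21.2 to 22.2 CPM, and *Cacng3*, which encodes an AMPA receptor partner, 3.91 against 6.39 to 7.36 CPM. Chance alone flags about 1 group in 20, and groups with very few counts were not tested. Genes of 1 library are not independent, so the number of flags cannot be set against chance. The same library had the highest subcortical marker sum (752 CPM) and the lowest postmitotic neuron sum (5324 CPM) among the cortices, and the part of these in the low values was not tested.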

How the results depend on the processing

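None of the members followed under the alternatives changed sign. These were the members at an unadjusted p below 0.05 for genotype, those past the FDR between preparations, and the 4 of smallest p in the interaction. The genes of the 5 lists and the other members were not followed one by one. The median of all members tested did so in the deleted preparations with library totals (0.14 to -0.02) and in the interaction (-0.03) without control cortex 3, control neurons 3 or deleted neurons 4 (0.0024 to 0.03). In cortex, 0 members past the FDR became 1 with library totals (*Cacna2d2*), 2 without the low-count filter, 3 with DESeq2 and 1 with limma-trend, all higher. Over all genes those fits called 56, 114, 195 and 61, in that order, against 57 in the main fit. In neurons, 0 became 3 without the filter (2 higher, 1 lower), where 297 of all genes were called, against 38 in the main fit. With library totals, 8 members were called higher between deleted preparations instead of 13. With 1 library left out, cortex gave 0 to 2 members past the FDR (all higher) and 8 to 13 higher at an unadjusted p below 0.05; neurons gave 0 to 6 past the FDR (0 to 5 higher, 0 to 1 lower) and 3 to 9 higher unadjusted, the fewest without control neurons 2 and the most past the FDR without control neurons 3; the control preparations gave 16 to 19 (11 to 14 higher, 4 to 7 lower), the deleted preparations 18 to 21 (12 to 14 higher, 6 to 7 lower) and the interaction 0. Over all genes, the fits with 1 library left out called 7 to 81 in cortex and 16 to 494 in neurons. Without the litter block, 0 members passed in either tissue or in the interaction, and 10 and 7 were higher at an unadjusted p below 0.05. With the replicate number as a block between preparations, whose same-numbered control libraries correlated by 0.0643 to 0.144, *Scn11a* lost and *Cacna1b* gained a call in the control comparison, while *Cacna1b* and *Scn1a* lost theirs in the deleted one. The causes were not tested. Depth limits *Scn10a* and *Scn11a*, for which counts were near 0 in neurons, and 4 members with at most 14 counts a library.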
